A study of Mus musculus with 60 samples.

Results

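Slc4a1, Rhag, Rhd, Kel, Sptb, Ank1, Epb41 and Epb42 encode proteins of the red cell membrane and of the protein skeleton beneath it. The 8 genes were chosen by name, and each symbol matched 1 identifier among the 49315 genes of the count tables. RNA was sequenced from whole blood of 60 male CD2F1 mice, bought at 5 to 6 weeks of age, in 10 groups of 6 mice with 1 library per mouse. Mice were dosed by mouth for 6 days with vehicle or with BIO 300, a powder formulation of synthetic genistein, at 50, 100 or 200 mg/kg. Blood was taken from vehicle mice and from mice of each of the 3 doses 24 h after dosing ended (Day 0), and the same 4 treatments were sampled 48 h after it ended (Day 1), in a separate set of animals. In the remaining groups, mice given vehicle or BIO 300 at 200 mg/kg received 9.2 Gy of total-body irradiation (TBI) on Day 0 and were bled on Day 1, 24 h after TBI. Every mouse was bled once, at its end point, so each difference between days was a difference between mice.

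Mature red cells have no nucleus, and most of the mRNA that blood carries from this lineage sits in reticulocytes, the youngest circulating red cells. Slc4a1 is the anion exchanger that swaps chloride for bicarbonate, Rhag and Rhd belong to the Rh complex of the membrane, and Kel is the Kell blood group endopeptidase. Spectrin, whose beta chain is encoded by Sptb, forms a mesh under the membrane that is tied to the anion exchanger by ankyrin (Ank1) and Epb42 and to actin by Epb41. GATA1, a transcription factor of the red cell lineage, is known to bind sites built around the letters GATA.

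Promoter sequences were examined because the 8 genes shared a direction in several comparisons. AGATAA was searched on both strands in the 250 bases before each RefSeq transcription start (GRCm38.p6), together with the variant ending in G (AGATAG), the variant starting with T (TGATAA) and the variant with both changes (TGATAG), and 5 of the 6 genes with an entry held at least 1 match. Counted by window, 5 of the 8 windows of these genes held a match, and so did 26.5% of all 32851 promoter windows of this length. A match describes the letters only and is not a measured binding site. The stretches around the matches follow, read 5′ to 3′ on the gene's own strand, with the matches in capitals.
Rhag, chr17:40811078-40811148, + strand: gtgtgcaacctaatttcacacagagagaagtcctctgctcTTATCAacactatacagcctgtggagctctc
Rhd, chr4:134864453-134864535, + strand: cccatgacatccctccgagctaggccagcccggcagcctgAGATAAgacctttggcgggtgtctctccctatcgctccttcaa
Kel, chr6:41704326-41704421, - strand: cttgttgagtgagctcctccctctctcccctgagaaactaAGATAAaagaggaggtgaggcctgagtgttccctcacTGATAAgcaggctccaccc
Epb41, chr4:132075452-132075537, - strand: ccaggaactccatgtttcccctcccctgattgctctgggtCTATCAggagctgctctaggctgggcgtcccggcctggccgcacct
Epb42, chr2:121037058-121037127, - strand: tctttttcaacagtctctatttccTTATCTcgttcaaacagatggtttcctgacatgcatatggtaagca
The first base of the match lay 31 bases before the start in Rhag and 43 in Rhd, and the 2 matches of Kel lay 56 and 19 bases before it. Those of Epb41 and Epb42 lay farther out, at 184 and 226 bases. Epb41 had entries for 3 starts, of which only the farthest upstream held a match, and Sptb held none. Slc4a1 and Ank1 had no entry.

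The genes lie on 7 chromosomes of GRCm38. In the GENCODE vM21 annotation Slc4a1 spans chr11:102348824-102366203 on the minus strand, Sptb chr12:76580488-76710547 (minus), Ank1 chr8:22974844-23150497 (plus), Epb42 chr2:121017891-121037072 (minus), Rhag chr17:40811126-40840754 (plus) and Kel chr6:41686330-41704339 (minus). Epb41 and Rhd are both on chromosome 4, at chr4:131923413-132075321 (minus) and chr4:134864536-134896172 (plus). Exons of 3 of the genes overlap another gene on the other strand, and the sources do not state whether strand was used in counting. Reads of the Ank1 antisense gene Gm15816 made up 0.868% to 5.16% of the reads of the pair, and those of Gm10300 at most 0.173% of the pair with Epb41. Those of Plekhg3 made up between 0.33% and 47.1% of the pair with Sptb. The highest of these shares was in mouse 51, an irradiated vehicle mouse.

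Levels below are in CPM, counts relative to library size, with the size scaled by TMM (the trimmed mean of M values) unless total counts are named. Divided by exonic length, the median levels of the 8 genes in vehicle mice on Day 0 covered a wide span, and neighbours overlapped at both ends of it. Epb41 and Slc4a1 were highest, with medians of 879 and 836 CPM per kb over 6 mice, ranging from 451 to 1222 and from 444 to 945. Sptb followed at 92.6 CPM per kb and Epb42 at 39.3. Ank1, Rhag and Kel were close together at 20.9, 19.5 and 19.0, and Rhd was lowest at 11.2, with a highest mouse (16.1) above the lowest mice of Ank1 (10.6), Rhag (12.3) and Kel (12.3). Hbb-bs, a beta globin gene and a major reticulocyte transcript, stood at 112916 CPM per kb in the same mice. Exonic length counts the exons of all isoforms, so the values of the long genes Ank1 and Epb41 are lower than those of any 1 isoform would be.

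Across the 10 groups, each on 1 TMM scale over all 60 mice, the 8 genes did not share 1 order. In the group given 50 mg/kg on Day 0 the median was the lowest of all for 7 genes, and for Sptb it was second to that of irradiated vehicle mice (254 against 218 CPM). The highest median was in mice given 200 mg/kg on Day 1 for Slc4a1 (4942 CPM), Sptb (1271), Ank1 (424), Epb41 (15249), Rhd (44.8) and Kel (140), in mice given 100 mg/kg on Day 1 for Rhag (164) and in mice given 200 mg/kg on Day 0 for Epb42 (311). The ratio of highest to lowest group median ran from 4.25 for Epb41 to 11.1 for Kel on TMM, and from 2.37 for Ank1 to 4.92 for Sptb when CPM were scaled to total counts instead. The order itself changed on total counts. The lowest median was then in irradiated vehicle mice for Slc4a1, Sptb, Epb41 and Epb42, and at 50 mg/kg on Day 0 for the others. Only Rhd and Kel still had their highest median at 200 mg/kg on Day 1. Of the 9 pairs of neighbours in each order on TMM, all overlapped in range for 6 genes, and 1 pair did not for Rhd and for Kel. The order therefore separates distant groups, not neighbouring ones.

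**Figure D1:**
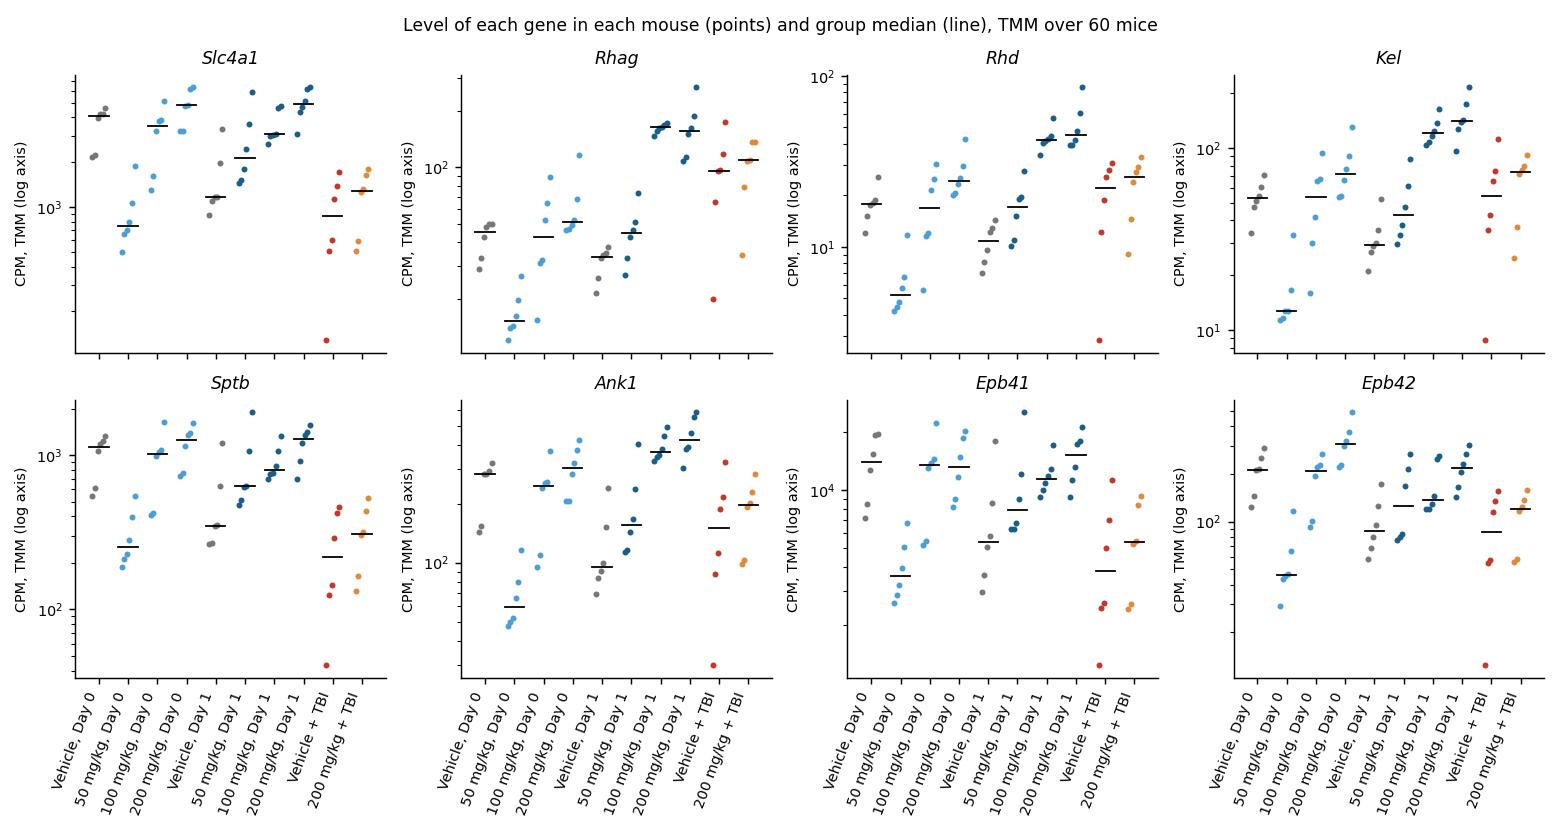
Level of each of the 8 genes in every mouse, in CPM scaled by TMM over 60 mice, on log axes; each point is 1 mouse, the black line is the median of 6 mice, and groups are arranged by day, dose and TBI. The 50 mg/kg Day 0 points sit below vehicle Day 0 in 7 panels and meet them in that of Sptb, Rhag, Rhd and Kel stand above vehicle on Day 1 at 100 and 200 mg/kg on this scaling, and 1 irradiated vehicle mouse (mouse 51) is the lowest of its group for all 8 genes.

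The libraries held 15099415 to 45589415 counts, and several measures of their makeup differed between groups. Gm26917, a long non-coding RNA gene, took a median of 6.64% of counts in vehicle mice on Day 0, 11.8% at 50 mg/kg on Day 0 and 7.36% in vehicle mice on Day 1, but 0.278% and 0.165% at 100 and 200 mg/kg on Day 1 and 2.07% in irradiated vehicle mice. The 4 globin genes took medians of 9.71%, 5.32%, 9.76%, 15.9%, 16.9% and 9.23% in the same 6 groups, and the 8 membrane and skeleton genes took 0.202% to 2.70% of a library. Hepatocyte markers were near 0 in most libraries, with group medians of their summed level between 0.402 and 8.89 CPM. In 10 libraries Alb exceeded 10000 counts, and among these was mouse 51. These shares moved with the groups and their part in the results was not tested. In bulk blood, fewer cells of the red lineage and less RNA per cell cannot be told apart.

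**Figure D2:**
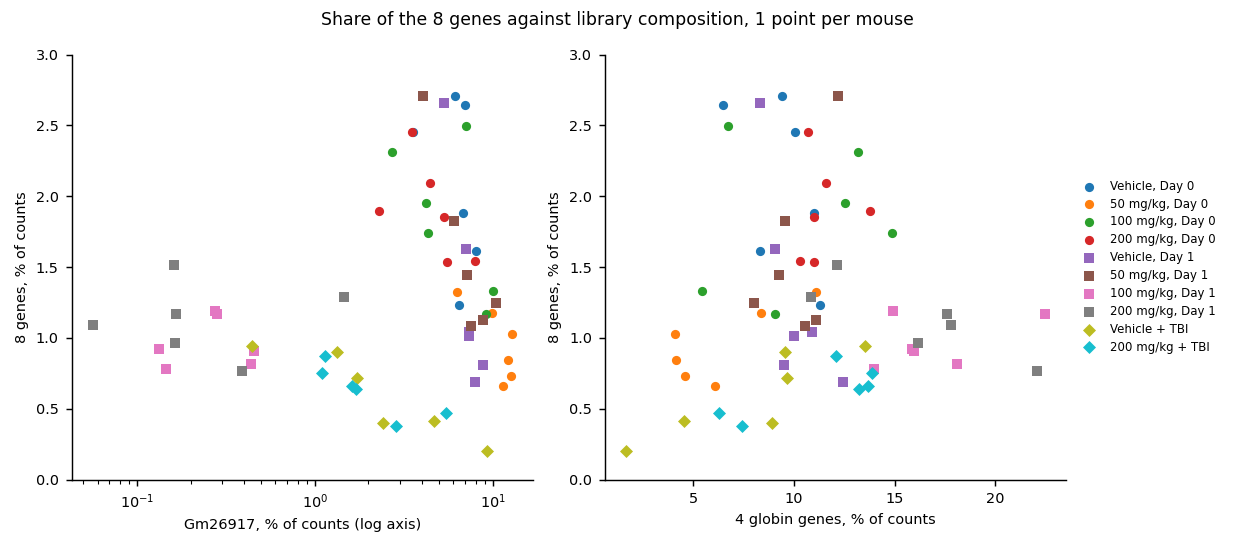
Percent of each library's counts held by the 8 genes together, against the percent held by Gm26917 (left, log axis) and by the 4 globin genes (right); each point is 1 mouse, coloured by group. Libraries from 100 and 200 mg/kg on Day 1 lie at Gm26917 shares of at most 1.46% and globin shares of at least 10.8%, and the lowest share of the 8 genes in an unirradiated mouse is 0.657%.

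On Day 0 all 8 genes fell in mice given 50 mg/kg of BIO 300 relative to vehicle. The log2 fold changes lay between -1.93 (Slc4a1, 3.80-fold lower) and -1.30 (Rhag, 2.46-fold lower), and no 50 mg/kg mouse reached the lowest vehicle mouse for any of the 8. A gene was called a differentially expressed gene (DEG) when its adjusted p in edgeR's quasi-likelihood test was under 0.05 and its absolute log2 fold change over 1. By that rule 4.38% of the 24485 genes tested were lower and 0.127% higher, and 4.46% of genes were lower with no overlap between the groups. Over the 8 genes the log2 fold changes had a median of -1.72, and over all genes tested one of 0.03. Counts of the 8 given below at unadjusted p, by DESeq2 or with mice left out come without shares of all genes. They are not read as particular to the 8.

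Among the membrane proteins, Slc4a1 ranged from 721 through a median of 1077 to 2661 CPM at 50 mg/kg and from 3087 through 5757 to 6738 CPM in vehicle mice. Its log2 fold change was -1.93 ± 0.34 (SE), with an adjusted p of 0.0032. The highest treated mouse for Slc4a1 and for the other 7 genes was mouse 2, whose library also had the lowest Gm26917 share of its group (6.32%) and a globin share of 11.1%. Rhag, the Rh-associated glycoprotein and a gas and ammonium channel, ran from 17.4 through 22.0 to 37.3 CPM against 40.9, 64.2 and 73.5 in vehicle mice. Rhd, its blood group partner, ran from 6.07 through 7.59 to 16.5 CPM against 17.2, 25.1 and 37.5. Kel ran from 16.4 through 18.3 to 46.6 CPM against 48.4, 74.9 and 103 CPM. The gaps between the highest treated and lowest vehicle mouse were narrow for these 3 genes.

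The skeleton genes showed the same separation. Sptb, the beta chain of spectrin, ran from 270 through 367 to 771 CPM at 50 mg/kg and from 777 through 1616 to 1904 CPM in vehicle mice, so that its ranges all but touched, and on the scale over 60 mice they met. Ank1 ran from 69.0 through 85.5 to 164 CPM against 204, 404 and 457. Epb41 ran from 3748 through 5189 to 9555 CPM against 10221, 20132 and 27723, and Epb42 from 42.2 through 66.2 to 164 CPM against 177, 301 and 423. Of the 4, Ank1 and Epb42 changed most, each by -1.84 on the log2 scale, and Epb41 had the largest SE of all 8 genes (-1.74 ± 0.40). All 8 calls held in each of the 12 fits that left out 1 mouse. When scaled to total counts the direction stayed, but log2 fold changes were -0.65 to -1.29, and 6 of 8 genes were called lower (not Rhag or Rhd), where 1.25% of all genes were lower and 10.5% higher. Ank1, Epb42 and Kel did not overlap on total counts, where 1.19% of genes were lower without overlap. The median of all genes was higher by 0.66 on total counts.

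Within each mouse the ratio of 2 genes does not depend on how libraries are scaled. At 50 mg/kg on Day 0 the mean log2 ratios to Slc4a1 were all higher in treated mice, by 0.08 (Epb42) to 0.69 (Rhag). Rhd was higher by 0.43, and the ranges of every ratio overlapped. Only that of Sptb, higher by 0.29 (-1.56 ± 0.15 against -1.86 ± 0.18, SD, n = 6), passed an exact permutation test with an adjusted p of 0.020 over all genes tested the same way. Because Slc4a1 itself fell, 82.9% of genes passed this test, and nothing particular to Sptb is read from it. The ratios of the other 6 genes did not pass.

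The second comparison at 50 mg/kg, on Day 1, gave no DEG among the 8 genes, and 0% of all genes were called. All 8 were above vehicle in the mean, with log2 fold changes of 0.56 to 0.81, of which 3 (Rhag, Rhd and Kel) had unadjusted p under 0.05 in edgeR. DESeq2 called 0 as well. Slc4a1 was 0.81 ± 0.41 and Rhag 0.56 ± 0.21. The difference between the effects of 50 mg/kg on Day 1 and on Day 0 was itself tested in a fit of the 4 groups, and it was called for all 8 genes, with log2 differences of 1.86 (Rhag) to 2.76 (Slc4a1), where 6.73% of all genes were higher. On total counts 7 of the 8 were called, all but Rhag, where 1.5% of genes were higher, and vehicle mice on Day 1 enter this contrast beside those of Day 0.

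Vehicle mice themselves differed between days by amounts that were not called. The 8 genes were lower on Day 1 than on Day 0, by -0.44 (Rhag) to -1.16 (Slc4a1) on the log2 scale, with 7 at unadjusted p under 0.05 in edgeR and 0 called, where 0% of all genes were called. DESeq2 called 3 of them lower (Slc4a1, Ank1 and Epb42). The 0% is that of edgeR, and the shares of all genes by DESeq2 and at unadjusted p are not given here. Ranges overlapped for every gene. In Slc4a1, vehicle mice ran from 2169 through 4088 to 4620 CPM on Day 0 and from 881 through 1178 to 3328 CPM on Day 1, on the scale over 60 mice, and mouse 30 was the highest of Day 1 for 7 of the 8 genes, all but Rhag. By the exact permutation test, the ratios of Ank1 and Kel to Slc4a1 were higher in vehicle mice on Day 1 than on Day 0, by 0.17 and 0.51 on the log2 scale (adjusted p of 0.032 for both, where 61.3% of genes passed), and those of Rhag (0.81) and Rhd (0.49) did not pass. Without mouse 18 or 30 the ratio of Rhd came under an unadjusted exact p of 0.05. Every comparison with vehicle on 1 day uses these 6 mice, so the doses are not independent of each other.

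At 100 and 200 mg/kg the 8 genes were close to vehicle on Day 0. At 100 mg/kg their log2 fold changes were -0.16 to 0.18, with a lowest unadjusted p of 0.604, and at 200 mg/kg they were 0.02 (Epb41) to 0.65 (Epb42). No gene was called by edgeR or DESeq2 at either dose, and 0% of all genes were. Of the 8, 0 at 100 mg/kg and 4 at 200 mg/kg (Epb42, Rhag, Rhd and Kel) had unadjusted p under 0.05. All ranges overlapped.

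On Day 1, mice given 100 mg/kg had higher levels of part of the 8 genes than vehicle mice. On TMM, 5 of them rose (Slc4a1, Ank1, Rhag, Rhd and Kel), where 18.2% of 23699 genes were higher and 30.6% lower. On total counts 1 was called higher (Rhag), where 4.14% were higher and 62.2% lower. The log2 fold changes of Slc4a1, Sptb, Epb41 and Epb42 were then below 0. The medians of Epb41 and Epb42 were also below vehicle on total counts. That of Slc4a1 was above it (2012 against 1708 CPM) and that of Sptb close to it (499 against 501 CPM). Vehicle mouse 30 stood at 3837 CPM for Slc4a1 and 1390 CPM for Sptb. The median of all genes differed by -1.38 between total counts and TMM. The sign of the fold change of Slc4a1, Sptb, Epb41 and Epb42 therefore depends on the scaling, while Rhag, Rhd, Kel and Ank1 were above vehicle on both.

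Rhag separated most clearly. It ran from 139 through 148 to 156 CPM at 100 mg/kg and from 18.8 through 29.7 to 32.4 CPM in vehicle mice, and its log2 fold change was 2.43 ± 0.13, or 1.05 on total counts. Treated mice lay within a narrow band that no vehicle mouse came near. Rhd ran from 32.9 through 38.2 to 50.6 CPM against 6.17, 9.45 and 12.5, a log2 fold change of 2.08 ± 0.18, and Kel from 99.3 through 108 to 146 CPM against 18.4, 25.5 and 45.4, a log2 fold change of 2.01 ± 0.19. Ank1 ran from 310 through 334 to 442 CPM against 60.7, 83.2 and 210, at 1.73 ± 0.27 and an adjusted p of 7.1e-05. These 4 were the genes without overlap, where 17.9% of all genes were higher without overlap. On total counts Rhag, Rhd and Kel did not overlap, where 3.89% of genes were higher without overlap.

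The other 4 overlapped vehicle, and Slc4a1, Sptb and Epb41 did so through 1 mouse. For Epb42, on the scale over 60 mice, vehicle mouse 29 (125 CPM) also stood above the lowest treated mouse (mouse 38, 119 CPM). Slc4a1 ran from 2515 through 2854 to 4220 CPM at 100 mg/kg and from 771 through 1029 to 2900 CPM in vehicle mice, a log2 fold change of 1.19 ± 0.32 with an adjusted p of 0.0050 on TMM and of -0.16 on total counts. Sptb (0.88 ± 0.35), Epb41 (0.76 ± 0.43) and Epb42 (0.82 ± 0.28) did not pass the fold threshold, and Epb41 did not pass the adjusted p. Mouse 30 was the highest vehicle mouse of each of these 4 genes, and without it all 8 genes were called. Without the libraries over 10000 Alb counts Sptb was called too, making 6. No share of all genes is given for fits with mice left out, so these rises are not read as particular to the 8. B cell markers were lower in these mice, with a summed level of 300 to 736 CPM against 1090 to 1667 in vehicle mice, and so were T cell markers (69.7 to 147 against 330 to 414 CPM), all 8 of each list being called lower. Platelet markers were higher, at 14700 to 33222 against 1927 to 3892 CPM with 8 of 8 called, and the part of these lists in the result was not tested.

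At 200 mg/kg on Day 1 all 8 genes were called higher on TMM, where 17.3% of 23513 genes were higher and 30.5% lower, and 0 were on total counts, where 3.03% were higher and 65.5% lower. On total counts Rhag, Rhd, Kel, Ank1 and Slc4a1 remained above vehicle, with log2 fold changes of 0.90, 0.82, 0.75, 0.43 and 0.22. Those of Sptb, Epb41 and Epb42 were -0.17, -0.35 and -0.30. The total-count median of Sptb was nonetheless above vehicle (615 against 501 CPM). That of Epb41 was close to it (7468 against 7753 CPM) and that of Epb42 below it (109 against 131 CPM). The median of all genes differed by -1.48 between total counts and TMM. Of the members, 5 did not overlap on TMM, where 17.4% of genes were higher without overlap, and Rhag and Rhd did not on total counts, where 3.7% were.

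Rhag ran from 93.5 through 139 to 231 CPM at 200 mg/kg against 18.0, 28.4 and 30.9 in vehicle mice, a log2 fold change of 2.47 ± 0.21. Rhd ran from 34.8 through 39.4 to 74.1 CPM against 5.89, 9.02 and 12.0 (2.36 ± 0.22), and Kel from 86.9 through 125 to 186 CPM against 17.6, 24.3 and 43.4 (2.27 ± 0.22). Slc4a1 ran from 2807 through 4349 to 5449 CPM against 736, 983 and 2768, so that the lowest treated mouse stood just above the highest vehicle mouse, and its log2 fold change was 1.70 ± 0.32. On the scale over 60 mice Slc4a1 overlapped instead, since the lowest treated mouse (mouse 46) was at 3117 and the highest vehicle mouse (mouse 30) at 3328 CPM. For Rhag, Rhd and Kel the groups were apart on both TMM scales. Ank1 (1.93 ± 0.28) was apart too, from 274 through 379 to 504 CPM against 58.0, 79.4 and 200.

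Sptb, Epb41 and Epb42 were called but overlapped. Sptb ran from 626 through 1097 to 1334 CPM against 217, 290 and 1003 in vehicle mice (1.29 ± 0.36), and Epb42 from 129 through 192 to 258 CPM against 48.2, 72.4 and 143 (1.20 ± 0.25). Epb41 ran from 8295 through 13164 to 19079 CPM against 2416, 4502 and 14980, and its log2 fold change of 1.10 ± 0.43 had an adjusted p of 0.035. It was not called without any 1 of mice 25, 26, 27, 28, 44, 45 or 47, which left it called in 5 of the 12 fits that left out 1 mouse, while the other 7 genes were called in all 12. B and T cell markers were again lower (172 to 577 and 41.0 to 178 CPM, all 8 of each list called) and platelet markers higher (14122 to 24672 CPM, 8 of 8 called), and their part in the result was not tested. Between 200 and 100 mg/kg on Day 1 no gene of the 8 was called by edgeR or DESeq2, with log2 differences of 0.05 (Rhag) to 0.52 (Slc4a1, at an unadjusted p of 0.036, the only one under 0.05), where 0% of all genes were called.

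The change between days was tested for these doses as well. The effect of 100 mg/kg was higher on Day 1 than on Day 0 for 5 of 8 genes on TMM, by 1.35 (Slc4a1), 1.87 (Ank1), 2.25 (Rhag), 2.09 (Rhd) and 2.02 (Kel) on the log2 scale, where 15.7% of all genes were called higher. For 200 mg/kg the same 5 genes were called, by 1.29, 1.64, 1.89, 1.78 and 1.71, where 13.1% were. On total counts 0 were called at either dose, where 3.52% and 2.4% of all genes were. DESeq2 called 6 and 7 of the 8, and its share of all genes is not given here.

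**Figure D3:**
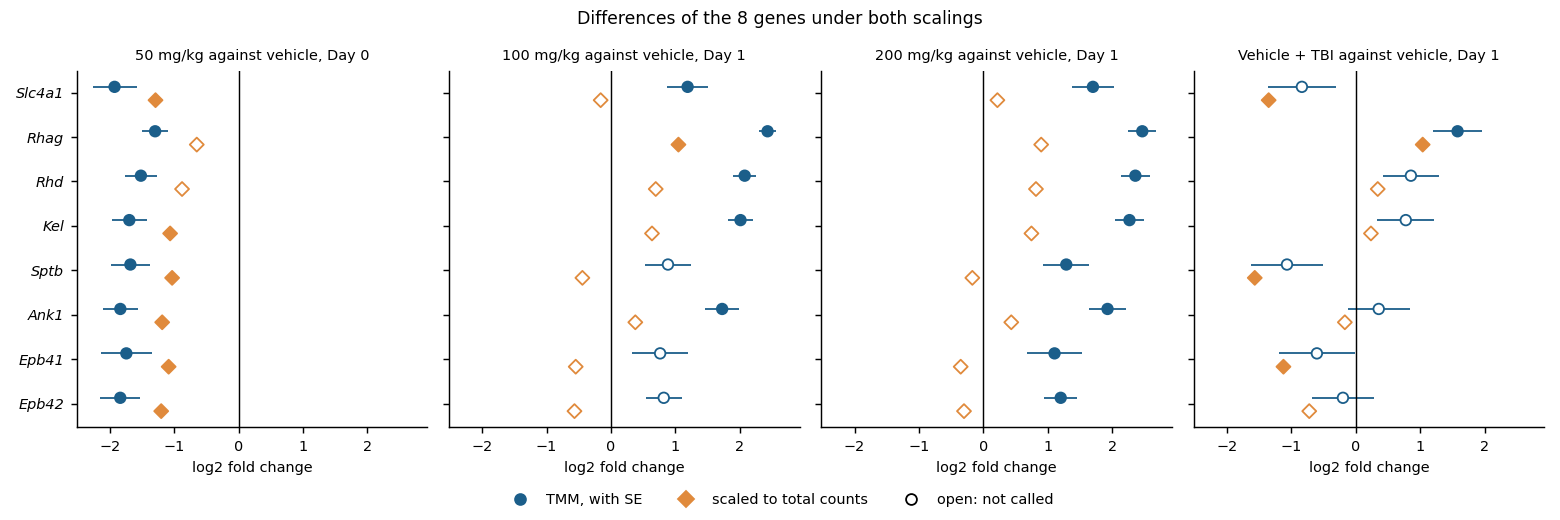
Log2 fold change of the 8 genes in the 4 main comparisons; blue circles are TMM values with their SE, orange diamonds are values scaled to total counts, and filled symbols were called DEGs. All 8 lie left of 0 at 50 mg/kg on Day 0 under both scalings, while on Day 1 at 100 and 200 mg/kg Sptb, Epb41 and Epb42 change side with the scaling and Rhag, Rhd, Kel and Ank1 do not.

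The ratios to Slc4a1, which do not depend on the scaling, did not all move in 1 direction at these doses. At 100 mg/kg on Day 1 the mean log2 ratio was higher than in vehicle mice by 1.14 for Rhag (-4.41 ± 0.33 against -5.55 ± 0.59, SD, n = 6), by 0.79 for Rhd, by 0.74 for Kel and by 0.53 for Ank1, and lower by 0.47 for Epb42 and by 0.23 for Sptb. These 6 of the 7 ratios passed the exact permutation test, with adjusted p of 0.0063 to 0.046, and Epb41 (a difference of -0.30) did not. Rhag, Ank1 and Kel were higher without overlap between the groups, where 1.27% of all genes' ratios to Slc4a1 were higher without overlap and 66.1% passed the test. By unadjusted exact p, the ratio of Sptb was no longer under 0.05 without any 1 of mice 26, 29, 30, 37, 41 or 42, and that of Epb41 passed without mouse 25. All of these ratios share the denominator Slc4a1, so they are not independent of each other.

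At 200 mg/kg the differences had the same signs. Rhd, Kel and Ank1 were higher relative to Slc4a1, by 0.52, 0.46 and 0.21, and Sptb, Epb41 and Epb42 lower, by 0.34, 0.49 and 0.56, and these 6 passed the exact permutation test (adjusted p of 0.0049 to 0.047, where 74.6% of all genes passed). Rhag was higher by 0.60 with an adjusted p of 0.052 by the same exact test. Without mouse 30, 46 or 47 the ratio of Rhd was no longer under an unadjusted exact p of 0.05. Kel was higher without overlap, where 0.897% of genes were, and Epb42 was lower without overlap, where 43.7% were. Most of all genes passed the test at both doses, so the count of ratios that passed is not read as particular to the 8. In vehicle mice the ratios were higher on Day 1 than on Day 0 by 0.81 (Rhag), 0.49 (Rhd), 0.51 (Kel) and 0.17 (Ank1). They were higher by 0.15 for Epb41 and Epb42 and by 0.12 for Sptb. For Rhag, Rhd and Kel this was about as much as at 200 mg/kg, or more.

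TBI gave a mixed pattern. In irradiated vehicle mice, compared with vehicle mice of Day 1, Rhag rose and no other gene of the 8 was called on TMM, where 19.6% of 25146 genes were higher and 16.4% lower. On total counts Rhag was still called higher (1.04, where 12.4% were higher), and Slc4a1 (-1.35), Sptb (-1.57) and Epb41 (-1.12) were called lower, where 22.5% were. The median of all genes differed by -0.36 between total counts and TMM. No gene of the 8 had groups without overlap on TMM, and Slc4a1 did on total counts, where 17.4% of genes were lower without overlap.

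Rhag ran from 23.0 through 118 to 206 CPM in irradiated mice and from 26.6 through 41.4 to 45.6 CPM in vehicle mice, a log2 fold change of 1.58 ± 0.38 with an adjusted p of 0.0047. All irradiated mice but mouse 51 were above the highest vehicle mouse. Rhd (3.28, 27.1 and 36.3 against 8.73, 13.2 and 17.4 CPM) and Kel (10.1, 66.4 and 132 against 26.1, 35.7 and 63.2 CPM) had log2 fold changes of 0.86 ± 0.43 and 0.78 ± 0.45 and were not called with all mice. Without mouse 51, the lowest of its group for all 8 genes and the library with the most Alb counts (569889), Rhag, Rhd (1.12) and Kel (1.04) were called higher, and the same 3 were when every library over 10000 Alb counts was left out. For these fits too, no share of all genes is given.

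Slc4a1 ran from 148 through 1063 to 2045 CPM after TBI and from 1090 through 1446 to 4031 CPM in vehicle mice, and Sptb from 50.1 through 267 to 546 CPM against 321, 427 and 1460.5. Their log2 fold changes were -0.84 ± 0.53 and -1.07 ± 0.55, with adjusted p of 0.204 and 0.125. Ank1 (0.36 ± 0.48), Epb41 (-0.60 ± 0.59) and Epb42 (-0.20 ± 0.48) were not called either. The spread among irradiated mice was wide in every one of the 8 genes. B cell markers were at 56.2 to 143 CPM and T cell markers at 23.7 to 100.4 CPM in these mice, while neutrophil markers stood at 1183 to 6670 against 434 to 706 CPM and platelet markers at 4009 to 28077 CPM. In all 4 of these lists 8 of 8 genes were called, and their part in the result was not tested.

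Relative to Slc4a1, Rhag was higher after TBI by 2.43 (-3.12 ± 0.42 against -5.55 ± 0.59), Rhd by 1.65, Kel by 1.56, Ank1 by 1.23 and Epb42 by 0.60. All 5 were without overlap and had the smallest p the exact permutation test allows with 6 against 6 mice, 0.00216, or 0.013 adjusted over all genes, where 16.2% of genes were higher without overlap and 26.1% passed. Sptb (-0.14) and Epb41 (0.40) did not pass. The ratio of Epb42 to Slc4a1 was thus lower than in vehicle mice of Day 1 at 100 and 200 mg/kg and higher after TBI, on the same 6 control mice.

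**Figure D4:**
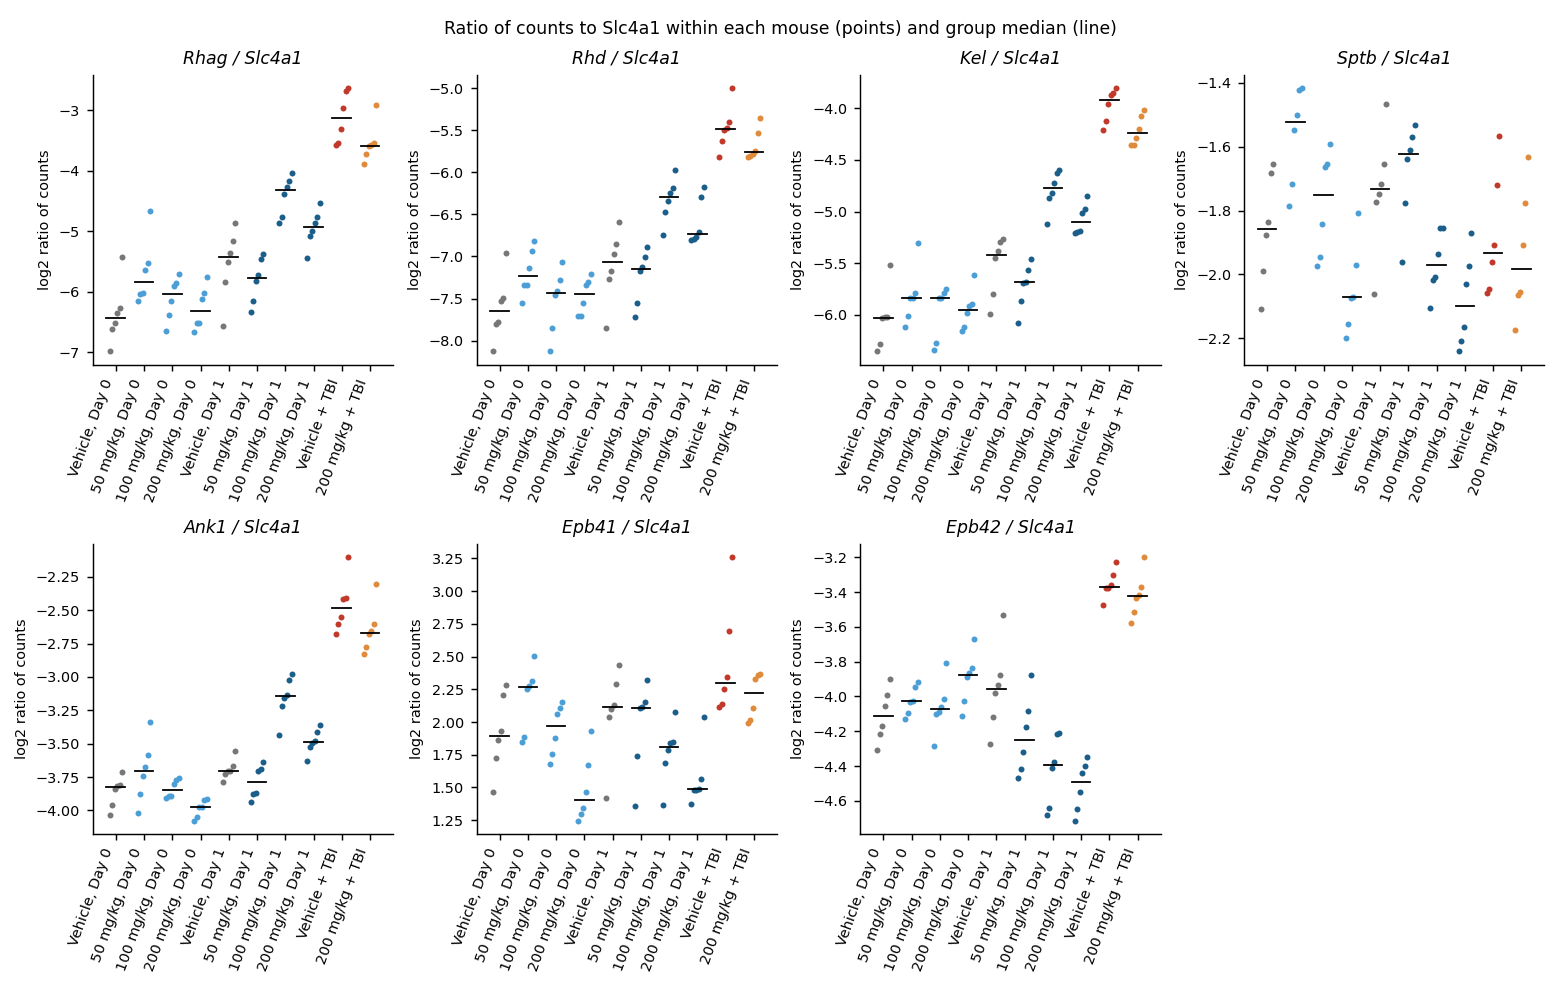
Log2 ratio of the counts of each gene to those of Slc4a1 within each mouse, by group; points are mice and the black line is the median of 6. The irradiated groups stand highest for Rhag, Rhd, Kel, Ank1 and Epb42, and Epb42 is lowest at 200 mg/kg on Day 1.

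Against vehicle mice of Day 0, irradiated vehicle mice had Slc4a1 (-1.84 ± 0.54) and Sptb (-1.89 ± 0.52) called lower and without overlap, where 11.8% of 24751 genes were lower and 10.3% were lower without overlap, and Rhag called higher (1.29 ± 0.41, where 15.1% were higher). On total counts Rhag was not called. On total counts Slc4a1, Sptb, Epb41 and Epb42 were called lower and without overlap, where 11.8% of genes were lower, 11.4% higher and 7.63% lower without overlap. Rhag was called in 9 of the 12 fits that left out 1 mouse, and DESeq2 called Epb41 lower as well. The ratios to Slc4a1 were higher than in vehicle mice of Day 0 for Rhag (3.25), Rhd (2.14), Kel (2.07), Ank1 (1.40), Epb42 (0.75) and Epb41 (0.56), of which all but Epb41 did not overlap, where 34.9% of genes were higher without overlap and 58.7% passed the test. Without mouse 13, 15 or 18 the ratio of Epb41 was no longer under an unadjusted exact p of 0.05.

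BIO 300 at 200 mg/kg before TBI made no called difference to the 8 genes relative to irradiated vehicle mice. Log2 fold changes were 0.02 (Rhag) to 0.31 ± 0.52 (Slc4a1), with 0 at unadjusted p under 0.05 in edgeR, 0 called by DESeq2 and 0% of all genes called. The SEs ran from 0.43 (Rhag) to 0.54 (Epb41), and differences smaller than this spread could show were not detectable here.

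Irradiated mice given 200 mg/kg were lower than unirradiated mice given the same dose, both on Day 1, in 7 of the 8 genes, all but Rhag (-0.80 ± 0.32, adjusted p of 0.082), where 5.73% of 23610 genes were lower and 14.9% higher. Slc4a1 ran from 340.3 through 883 to 1166 CPM in irradiated and from 2158 through 3299 to 4779 CPM in unirradiated mice (-2.15 ± 0.36). Sptb ran from 89.2 through 212 to 340.1 CPM against 481, 873 and 1093, and Epb42, with a log2 fold change of -1.10 ± 0.28, from 37.1 through 82.2 to 102 CPM against 99.2, 146 and 211. The log2 fold changes of the others were -1.51 (Epb41), -1.35 (Ank1), -1.32 (Kel) and -1.28 (Rhd). In 6 of the 8 genes, all but Epb42 and Rhag, the groups did not overlap, where 6.17% of genes were lower without overlap. On the scale over 60 mice Epb41 overlapped too. On total counts 2 were called (Slc4a1 and Sptb), where 0.945% of genes were lower, 38.5% higher and 1.36% lower without overlap. Epb42 was called in 7, Rhd in 10 and Kel in 11 of the 12 fits that left out 1 mouse, and without mouse 57 4 of the 8 were called on TMM. By the exact permutation test 6 of the 7 ratios to Slc4a1 were higher in irradiated than in unirradiated mice. Slc4a1 itself fell and 85.9% of all genes passed, so nothing particular to the 8 genes is read from this count. Rhag was higher relative to Slc4a1 by 1.41, Epb42 by 1.10, Rhd by 0.92, Kel by 0.86 and Ank1 by 0.84, all 5 without overlap, where 55.8% of genes were higher without overlap. Epb41 was higher by 0.62 with overlap, and Sptb (0.15) did not pass. The effect of 200 mg/kg on Day 1 was itself lower in irradiated than in unirradiated mice for Ank1 (-1.57), Rhag (-2.24), Rhd (-1.99) and Kel (-1.95), where 10% of all genes were called lower on TMM, and for 0 of the 8 on total counts, where 1.8% were. Ank1 kept this call in 15 of 24 fits that left out 1 mouse, and without the libraries over 10000 Alb counts 6 of the 8 were called lower, Slc4a1 and Epb42 among them.

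Over the 60 mice some pairs of the 8 genes moved together more than others. The Spearman correlation of log2 CPM was 0.98 between Slc4a1 and Sptb and 0.99 between Rhd and Kel, but 0.43 between Rhag and Sptb, and on total counts the last was -0.32. These are descriptions of mice that share groups and depth. Around the group means the values were 0.96, 0.94 and 0.64. Within groups the SD of log2 CPM was 0.53 (Rhag) to 0.70 (Epb41), while that of the log2 ratio to Slc4a1 was 0.13 (Ank1) to 0.41 (Rhag). Profiles were compared over 60 mice among 6738 genes with a mean of at least 10 CPM, the 8 included. Outside the list, the most similar on TMM were Ranbp10 for Slc4a1 and for Sptb (0.99 for each), Slc7a5 for Ank1 (0.99), Car2 for Epb42 (0.98), Adam10 for Rhag (0.99), Ptdss2 for Rhd (0.99) and Tmcc2 for Kel (0.99). On total counts Fbxo9 came first for Slc4a1 (0.98) and Fam126a for Rhag (0.96). The others named kept the same gene, with Ptdss2 for Rhd at 0.91.

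A wider list of 21 other red cell membrane genes, of which 20 were tested and Icam4 was not, followed the 8 in part. At 50 mg/kg on Day 0, where 4.38% of all genes were lower (1.25% on total counts), 10 of the 20 were called lower. On TMM 0 were higher and the median was -1.04, and on total counts 6 were lower. Among those with the largest change was Add2 (-1.83 ± 0.28), the beta chain of adducin. At 100 and 200 mg/kg on Day 1, 14 and 17 were called higher on TMM, where 18.2% and 17.3% of all genes were. The medians of the 20 were 1.39 and 1.70 and fell to 0.01 and 0.19 on total counts. On total counts 4.14% and 3.03% of all genes were higher. Aqp1, the water channel, led at both doses (2.55 ± 0.14 and 2.71 ± 0.17) and was the only one higher on total counts too, and Ermap, a blood group protein of red cells, came second (2.26 ± 0.19 and 2.32 ± 0.20). After TBI 6 were called higher and 0 lower (3 and 3 on total counts), led by Aqp1 (1.81 ± 0.29) and Gypc (1.61 ± 0.28), a glycophorin that binds Epb41. Of all genes, 19.6% were higher and 16.4% lower after TBI on TMM, and 12.4% and 22.5% on total counts.

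**Figure D5:**
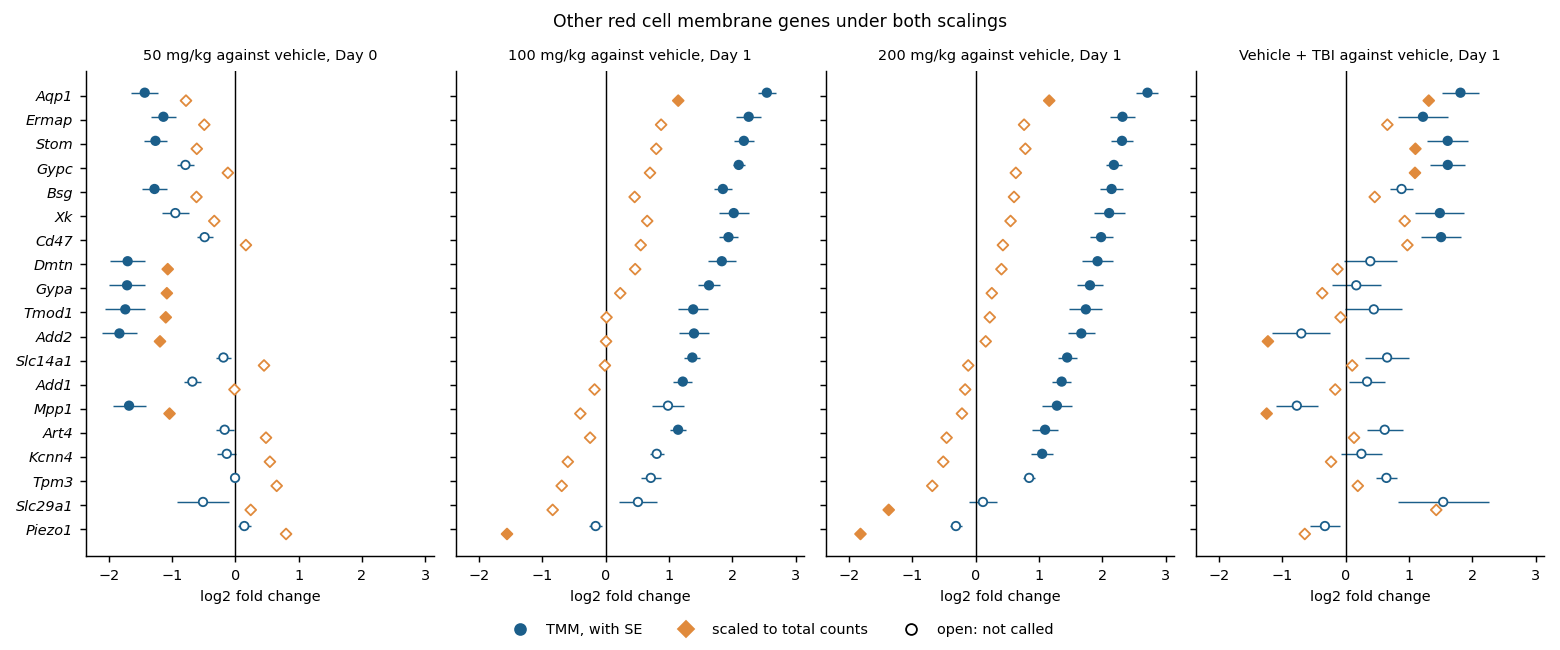
Log2 fold change of 19 other red cell membrane genes in the same 4 comparisons, ordered by the value at 200 mg/kg on Day 1; blue circles are TMM values with SE, orange diamonds values scaled to total counts, filled symbols were called. Most lie below 0 at 50 mg/kg on Day 0 and above 0 on Day 1 at 100 and 200 mg/kg on TMM, where total counts bring them to both sides of 0.

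Genes of hemoglobin production and transcription factors of the lineage were examined the same way, on TMM. On this scaling 4.38% of all genes were lower at 50 mg/kg on Day 0. At 100 and 200 mg/kg on Day 1, 18.2% and 17.3% were higher, and after TBI 19.6%. The 4 globin genes had 1 called lower at 50 mg/kg on Day 0 (Hbb-bt, -1.13 ± 0.33, in 4 of 12 fits that left out 1 mouse) and 4 called higher at 100 and 200 mg/kg on Day 1, led by Hba-a1 (2.97 ± 0.42) at the lower and Hba-a2 (3.23 ± 0.35) at the higher of these doses. After TBI 0 of the 4 were called. The methods text describes globin depletion, and globin values are read with it in mind. Of 8 heme synthesis genes, 4 were lower at 50 mg/kg on Day 0, led by Fech (-1.63 ± 0.35) and Urod (-1.46 ± 0.23), 8 were higher at both upper doses on Day 1, led by Alas2 (2.12 ± 0.60 and 2.41 ± 0.46), the enzyme of the first step, and 3 were higher after TBI, led by Alad (1.47 ± 0.31). Of the 6 transcription factors, 5 were lower at 50 mg/kg on Day 0, led by Zfpm1 (-1.16 ± 0.17) and Gata1 (-1.10 ± 0.19), and 6 were higher at both upper doses on Day 1, led by Gfi1b (2.85 ± 0.16) at 100 mg/kg and Tal1 (2.78 ± 0.18) at 200 mg/kg. After TBI 5 were higher, led by Gfi1b (2.95 ± 0.33) and Gata1 (2.73 ± 0.37). On total counts 0 genes of these 3 lists were called at 50 mg/kg on Day 0, and at each upper dose on Day 1 2 globin genes, 0 heme synthesis genes and 4 transcription factors were higher. Of all genes on that scaling, 1.25% were lower at 50 mg/kg on Day 0, and 4.14% and 3.03% higher at the upper doses. The paralogs of the 8 genes that are known from other tissues, 8 or 9 of 10 tested, had 0, 2, 2 and 2 called higher and 0, 0, 1 and 0 called lower in the 4 main comparisons on TMM. In the same order, 0.127%, 18.2%, 17.3% and 19.6% of all genes were higher and 4.38%, 30.6%, 30.5% and 16.4% lower.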

How the data were processed

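Whole blood RNA-seq libraries of 60 mice were analysed from 10 gene count tables. Per the methods and labels, the authors used Trimmomatic 0.36 to trim reads, STAR 2.5.2b to align them (GRCm38) and Subread 1.5.2 to count them per gene, and deposited the raw counts. The methods describe a stranded total RNA kit with rRNA and globin depletion, while the labels name poly(A) selection. The strand setting of the counting is not given in the sources used here. The authors' tables of DESeq2 results (version not given) hold log2 fold changes, p-values, adjusted p-values and normalized counts, of which only the pairing of 18516 gene identifiers with symbols was used. Count columns given more than once, 60 in all, were identical to their first copy. Each mouse was 1 replicate, and no 2 mice of a group agreed within sampling noise (smallest chi-square per gene 12.0). Depth was 15099415 to 45589415 counts (median 24877993.5).

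Genes with at least 10 counts in all over the mice of a comparison were tested with edgeR 4.0.16 (R 4.3.3) by the quasi-likelihood test on TMM-scaled counts, in 12 comparisons of pairs of groups and 4 differences between effects, each fitted to its own groups. Adjusted p-values (Benjamini-Hochberg) were taken over all genes of a comparison, and a call needed an absolute log2 fold change over 1 besides an adjusted p under 0.05. Alternatives were scaling to total counts, DESeq2 1.42.0 with its size factors, edgeR with those size factors, filterByExpr, no filter, calls by adjusted p alone, a fit of 60 mice, leaving out each mouse, and leaving out libraries over 10000 Alb counts. Ratios to Slc4a1 were compared by a two-sided exact permutation test over 924 splits, with a smallest p of 0.00216, adjusted over all genes. The ratio test and the Alb alternative were added after the data were seen, and alternatives of the ratio test were judged by unadjusted exact p. The scripts were tested on simulated data. The members and gene lists were chosen with earlier results of these data known.

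Named were all 8 genes in every comparison, and from each list the 2 called genes with the largest absolute log2 fold change and a mean of at least 10 CPM in a group, in 4 comparisons (50 mg/kg on Day 0, 100 and 200 mg/kg on Day 1, and irradiated against unirradiated vehicle on Day 1). Some genes that these rules pick are not reported here. The most similar gene was taken by Spearman correlation of log2(CPM + 1) over 60 mice.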

Additional observations from a re-analysis of the deposited data

Results flagged for a closer look

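Within each group of 6 mice, the gap between the highest or the lowest mouse and its neighbour was compared with the whole range of the group, and 4 of 80 groups were past Dixon's critical value for 6 mice, where chance alone gives about 1 in 20. The ratios were 0.677 for Rhd and 0.761 for Kel in mouse 2 (50 mg/kg on Day 0), 0.692 for Epb41 in mouse 32 (50 mg/kg on Day 1) and 0.698 for Rhag in mouse 22 (200 mg/kg on Day 0).

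The effect of a dose differed between days, by a test of the difference itself, for all 8 genes at 50 mg/kg and for 5 at each higher dose. On the log2 scale, Day 1 minus Day 0, the differences at 50 mg/kg were 2.76 for Slc4a1, 2.48 for Sptb, 2.55 for Ank1, 2.35 for Epb41, 2.44 for Epb42, 1.86 for Rhag, 2.22 for Rhd and 2.34 for Kel. At 100 mg/kg they were 1.35 for Slc4a1, 1.87 for Ank1, 2.25 for Rhag, 2.09 for Rhd and 2.02 for Kel, and at 200 mg/kg 1.29, 1.64, 1.89, 1.78 and 1.71 for the same genes. The effect of 200 mg/kg on Day 1 was lower in irradiated than in unirradiated mice by a test of the difference, at -1.57 for Ank1, -2.24 for Rhag, -1.99 for Rhd and -1.95 for Kel. The 12 Day 0 and Day 1 vehicle mice enter all 3 differences between days.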

How the results depend on the processing

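Scaling changed most. On total counts 1 of the 8 genes was called for the 100 mg/kg dose on Day 1 and 0 for the 200 mg/kg dose, 4 in irradiated vehicle against vehicle mice on Day 1 (1 higher and 3 lower, which turned the balance), 2 in irradiated against unirradiated mice given 200 mg/kg, and 0 in the differences between days at 100 and 200 mg/kg and in that between irradiated and unirradiated mice. Among genes called on TMM, the log2 fold changes that turned sign on total counts were those of Slc4a1 at 100 mg/kg on Day 1 (-0.16) and of Sptb (-0.17), Epb41 (-0.35) and Epb42 (-0.30) at 200 mg/kg on Day 1. Those of Sptb (-0.44), Epb41 (-0.55) and Epb42 (-0.57), not called at 100 mg/kg on Day 1, turned as well. DESeq2 called 3 between vehicle mice of Day 1 and Day 0, filterByExpr and the fit of 60 mice called 5 in irradiated vehicle against vehicle mice of Day 0, and the fit of 60 mice called 2 and the fit without libraries over 10000 Alb counts 3 in irradiated vehicle against vehicle mice of Day 1. The cause was not tested.

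Leaving out 1 mouse gave 8 to 8 calls at 50 mg/kg on Day 0, 5 to 8 for the 100 mg/kg dose and 7 to 8 for the 200 mg/kg dose on Day 1, 2 to 4 and 1 to 3 in irradiated vehicle mice against vehicle mice of Day 0 and Day 1, 4 to 7 in irradiated against unirradiated mice given 200 mg/kg, 8 to 8, 4 to 7 and 5 to 7 in the differences between days at 50, 100 and 200 mg/kg, 3 to 5 in the difference between irradiated and unirradiated mice, and 0 to 0 elsewhere. Of 2816 alternative values of single fold changes, 65 fell short of the threshold and 47 newly passed it. The sign changed in 92 of the 2816, of which 4 were of genes called on TMM and 88 of genes that were called under neither setting, with 25 of the 92 on total counts and 45 from leaving out 1 mouse. No paired analysis was possible because the animal numbers in the labels are unique to each mouse.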

Other observations

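Markers of white cells and platelets, whose summed levels stand beside the results above, were counted gene by gene on TMM. On that scaling 30.6% and 30.5% of all genes were lower at 100 and 200 mg/kg on Day 1, and 16.4% after TBI. The shares called higher were 18.2%, 17.3% and 19.6%. Of 8 B cell markers, all were lower at 100 and 200 mg/kg on Day 1 and after TBI, with median log2 fold changes of -1.50, -1.73 and -3.49. Among them were Cd22 (-1.88) at 100 mg/kg, Ighd (-1.92) at 200 mg/kg, and Ighd (-6.20) and Cd79a (-3.88) after TBI. All 8 T cell markers were lower as well, the largest changes being those of Cd8b1 (-2.19, -2.17 and -6.57) and Cd8a (-2.14, -2.29 and -5.48). All 16 of these calls held on total counts in each of the 3 comparisons, where 62.2%, 65.5% and 22.5% of all genes were lower.

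All 8 platelet markers were higher in the same 3 comparisons on both scalings, with medians on TMM of 3.06, 3.20 and 2.57, led by Gp1bb (3.39 and 3.57) at 100 and 200 mg/kg and by Itga2b (2.78) after TBI, and Treml1 was at 3.26 and 3.46 at these doses. At 50 mg/kg on Day 0, 5 of the 8 were lower on TMM (Treml1 -1.05, Itgb3 -1.03) and 0 on total counts. Of 8 neutrophil markers, S100a8 (1.32) and S100a9 (1.20) were higher at 100 mg/kg on Day 1 and 0 at 200 mg/kg on TMM. On total counts 5 were lower at each dose, where 62.2% and 65.5% of all genes were, a share close to theirs. After TBI all 8 neutrophil markers were higher on TMM, led by Csf3r (3.19) and Cxcr2 (3.13).

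Of 6 monocyte markers, 4 were lower at 100 mg/kg on Day 1 and 2 at 200 mg/kg on TMM, among them Fn1 (-1.84 and -2.22) and Ccr2 (-1.57 and -1.24), and after TBI 2 were higher and 2 lower, the latter being Ccr2 (-2.53) and Cx3cr1 (-2.19). No hepatocyte marker was called in these comparisons or at 50 mg/kg on Day 0, where 0 of the B cell, T cell, neutrophil and monocyte markers were called on TMM either. Among the paralogs of the 8 genes, Sptbn1, a spectrin beta chain of other tissues, was higher on TMM at 100 and 200 mg/kg on Day 1 (1.30 and 1.41) and at -0.09 and -0.11 on total counts.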
